A study of Mus musculus with 18 samples.

Results

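Anti-PD-1 added to cryo-thermal therapy was examined in 6 of the 18 mouse tumours of the study. The members were chosen by treatment label alone: 3 tumours from mice given cryo-thermal therapy and 3 from mice that also received a PD-1 antibody. According to the labels these were side tumours that received no ablation themselves, so the RNA reports on tissue away from the ablated site. Cryo-thermal therapy joins freezing with radiofrequency heating, and both groups carry it, so the antibody is the stated difference between them. The remaining 12 tumours, 3 each after cryoablation or radiofrequency ablation with and without anti-PD-1, serve here for the shared estimate of spread and for comparison. Tumours of mice without ablation, or with anti-PD-1 alone, were not analysed here. The sources used here do not give the tumour line, the strain and age of the mice, the clone and dose of the antibody, or when tumours were taken. Nothing in the labels ties the tumours of a group to separate mice. The p-values therefore speak only of the spread between the deposited samples, which may be technical.

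PD-1, encoded by Pdcd1, is an inhibitory receptor that activated T cells display. Its ligands PD-L1 (Cd274) and PD-L2 (Pdcd1lg2) dampen signalling through the T cell receptor, and antibodies that block PD-1 release that brake. Activated T cells and NK cells secrete interferon gamma, which acts on tumour and myeloid cells to induce antigen presentation genes, guanylate-binding proteins and the chemokines Cxcl9 and Cxcl10, which draw in further T cells. The series title speaks of mature myeloid cells, Ccl5 and T cells entering the tumour, and the comparison asks what the antibody added to the state after cryo-thermal therapy.

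Of 26538 genes in the table, 12587 had a mean of at least 0.5 FPKM (fragments per kilobase of transcript, scaled to the mapped fragments of the library) over all 18 tumours and were tested. The genes nearest that limit were Nup210 with a mean of 0.5002 inside it and Gm10658 with 0.4999 outside it. Depth estimated from the values was about 37500000 to 38500000 fragments in the 6 tumours, and 5995 to 7191 genes were listed at 0. One tumour with anti-PD-1 held much skin: the mean log2(FPKM + 1) of 27 keratinocyte genes was 4.08 in its replicate 1, 2.62 in replicate 2 and 0.52 in replicate 3, against 0.53, 1.85 and 0.67 without the antibody. The keratin genes Krt8 and Krt18 were near 0 in all 6 tumours, at 0.0288 to 0.202 FPKM and 0 to 0.167 FPKM. The basal keratin Krt14, given below, was not. The melanocyte gene Mlana was listed at 0 in each of the 6. The mesenchymal tumour genes had mean log2 levels of 5.70 to 5.91 in the 6 tumours. The labels name no tumour type against which these markers could be set.

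Adding anti-PD-1 changed 47 genes at an adjusted p under 0.05 in limma's moderated test with Benjamini-Hochberg adjustment. Of them 31 rose, 0.246% of the genes tested, and 16 fell, 0.127%. The rises were led by Chil3, a product of alternatively activated macrophages and of neutrophils, and the chemokine gene Ccl24. They included Nt5e, the enzyme CD73 that makes adenosine. Chil3 and Ccl24 were the only 2 of 16 tested genes of alternative activation to pass, and that list had a median log2 fold change of 0.09. The falls were led by the matrix protein gene Ogn and the caveolar coat gene Cavin2. Fold changes are on the log2(FPKM + 1) scale, which understates the change of genes with low FPKM. On that scale 7 genes rose and 3 fell by more than 2-fold, and the median over all genes tested was 0.003. At an unadjusted p under 0.05 stood 884 genes with a positive fold change, 7.02%, and 747 with a negative one, 5.93%, together 1631 where 629 would be expected by the threshold alone. In all 47 the 3 tumours with anti-PD-1 lay on one side of the 3 without, which held for 10.6% of all genes in the upward and 9.2% in the downward direction. Of the 31 that rose, 21 were higher in all 3 tumours with cryo-thermal therapy and anti-PD-1 than in each of the other 15 tumours of the study, against 2.51% of all genes. Of the 16 that fell, 12 were lower than in all 15, against 2.28% of all genes. The 47 were picked by a difference between these same tumours, so shares above those of all genes follow in part from the choice. They are no separate support. The gene nearest the threshold inside it was Errfi1 with an adjusted p of 0.0498, and the nearest outside it was Tmeff1 with 0.0515.

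**Figure D1:**
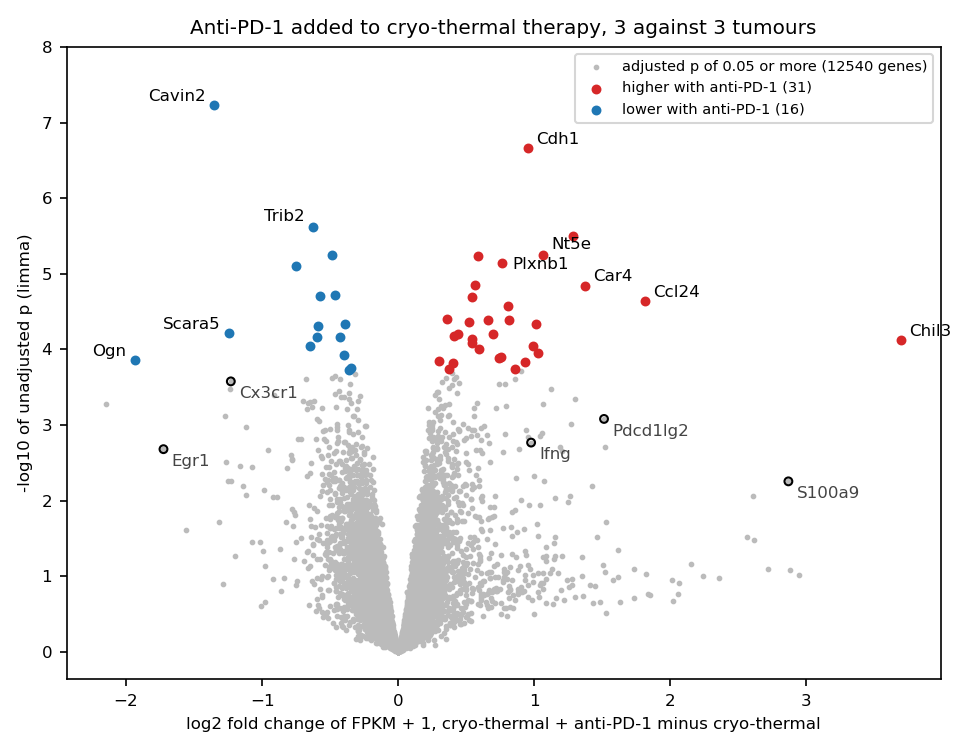
Each point is 1 of 12587 genes, with the log2 fold change of FPKM + 1 (cryo-thermal therapy with anti-PD-1 minus cryo-thermal therapy alone, 3 tumours each) on the x axis and -log10 of the unadjusted limma p on the y axis. The 31 genes that rose are red and the 16 that fell are blue, with Cavin2 and Cdh1 highest on the y axis. Open circles mark 5 genes described in the text that did not pass the test.

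The number of genes past the threshold rested on single tumours and on the shared estimate of spread. Leaving out cryo-thermal replicates 1, 2 and 3 in turn gave 80, 10 and 22 genes. Among the tumours with anti-PD-1, leaving out the skin-rich replicate 1 gave 41, replicate 2 gave 2 and replicate 3 gave 12. When only the 6 tumours were fitted, 1 gene passed, Cavin2. All 47 kept a limma unadjusted p under 0.05 in each of those fits. Their direction could not turn there, because the groups of each gene did not overlap. The genes were picked from these same values, so neither outcome is independent support. With the keratinocyte level of each tumour as a covariate 48 genes passed, of which 28 were among the 47.

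Chil3 (NCBI gene 12655), a chitinase-like protein secreted by alternatively activated macrophages and by neutrophils, had the largest fold change. In replicates 1, 2 and 3 it stood at 3.43, 4.05 and 13.4 FPKM without the antibody and at 43.2, 108 and 144 FPKM with it, the order in which values of a group are given throughout. The groups did not overlap. The means were 6.96 ± 5.58 and 98.5 ± 51.1 FPKM (SD, n = 3 each), with a log2 fold change of 3.70 (SE 0.69) and a limma adjusted p of 0.0309. Chil3 passed in 2 of the 6 fits with 1 tumour left out and in 10 of all 19 alternatives. The gene also varied widely after cryoablation alone, at 129, 19.2 and 66.0 FPKM. Ccl24 (NCBI gene 56221), the chemokine eotaxin-2 that attracts eosinophils, was at 0.675, 0.227 and 0.172 FPKM without the antibody and at 2.01, 3.99 and 5.98 FPKM with it. Its log2 fold change was 1.81 (SE 0.30), with an adjusted p of 0.0195, and the groups did not overlap. Ccl24 passed in 2 of the 6 fits with 1 tumour left out and in 13 of all 19 alternatives. Both genes belong to a list of alternatively activated myeloid genes, of which 16 passed the filter, and these were its only members to pass the test.

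Nt5e (NCBI gene 23959) encodes CD73, a surface enzyme that turns AMP into adenosine, which suppresses T cells. It stood at 7.84, 8.03 and 6.09 FPKM after cryo-thermal therapy and at 18.5, 16.3 and 14.4 FPKM with anti-PD-1. Its log2 fold change was 1.07 (SE 0.16) with an adjusted p of 0.0105, and the 12 tumours of the other ablations ran from 6.61 to 11.8 FPKM. All 3 tumours with the antibody therefore lay above the other 15. Adora2b, a receptor for adenosine, was at 3.37 ± 0.56 FPKM without and 2.41 ± 0.21 FPKM with anti-PD-1, with a log2 fold change of -0.35 (SE 0.10) that did not pass the test (adjusted p = 0.119).

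Among genes of epithelial cells and growth factor signalling, Cdh1 (NCBI gene 12550), the adhesion protein E-cadherin, had the smallest p of the genes that rose. Its FPKM was 1.75, 2.22 and 2.29 without and 4.61, 5.07 and 5.19 with anti-PD-1, a log2 fold change of 0.95 (SE 0.11) with an adjusted p of 0.00136. The tumour with the highest Cdh1, replicate 3, had a keratinocyte level of 0.52, the lowest of the 6 tumours. Cdh1 also passed the threshold without the skin-rich replicate 1, as it did without each of the other 5 tumours. The 19 alternatives include a fit with the keratinocyte level as a covariate. Over them the log2 fold change of Cdh1 ran from 0.871 to 1.217, and it passed in 17. Beyond those fits the part of skin in the Cdh1 values was not tested. The adhesion gene Epcam, which did not pass the test, was at 2.36, 0.635 and 0.0513 FPKM with the antibody, in the order of the keratinocyte level. Wnt7b, a secreted Wnt ligand, was at 0.102, 0.717 and 0.434 FPKM without and 2.08, 1.56 and 1.06 FPKM with anti-PD-1 (log2 fold change 0.86, SE 0.18, adjusted p = 0.0493). In both groups Wnt7b ran in the order of the keratinocyte level, and beyond such fits the part of skin was not tested for it either. It passed in 0 of the 6 fits with 1 tumour left out and in 3 of all 18 alternatives. Vegfc, a growth factor for lymphatic vessels, was at 6.505 ± 1.08 and 11.5 ± 0.265 FPKM (SD, n = 3 each), with a log2 fold change of 0.75. Vegfc passed in 0 of the 6 fits with 1 tumour left out. Pdgfb, a platelet-derived growth factor chain, rose by 0.59, and Plxnb1, a semaphorin receptor, rose by 0.77 on the log2 scale. Plxnb1 was at 1.64, 1.57 and 1.53 FPKM with the antibody, a narrow range that lay above 0.285, 0.583 and 0.715 FPKM without it.

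The other named genes that rose had various roles. Car4, a membrane-bound carbonic anhydrase, was at 1.102, 0.223 and 0.852 FPKM without and 4.19, 3.47 and 2.58 FPKM with anti-PD-1 (log2 fold change 1.37, SE 0.22). Slc14a1, a urea transporter, had a log2 fold change of 1.03, and Piwil4, a Piwi-family protein, one of 1.01. Aldh1l1, a folate enzyme, had 0.99, Ggct, which acts in glutathione breakdown, had 0.93, and the transcription factor gene Bhlhe22 had 0.81. Inava rose by 0.81 and Noct, a circadian phosphatase, by 0.70. The further 14 named genes that rose had log2 fold changes of 0.30 to 0.66. They were Mex3a, Pdgfb, Myo10, Dnajc22, Adamts9, Bcl3, Tmem132a, Adamts14, Fut8, Sgms2, Spsb1, Dennd2b, Zswim4 and Lrch1. Aldh1l1 and Fut8 passed in 0 of the 6 fits with 1 tumour left out. Bcl3, a nuclear partner of NF-kB, was at 13.9, 11.2 and 12.8 FPKM without and 19.1, 19.1 and 18.1 FPKM with anti-PD-1, with an adjusted p of 0.0326. It was the only one of 20 tested NF-kB targets to pass.

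The genes that fell included coat and scaffold proteins of caveolae, flask-shaped pits of the cell membrane that are abundant in endothelium, fibroblasts and fat cells. Cavin2 (NCBI gene 20324) was at 17.1, 16.4 and 15.2 FPKM after cryo-thermal therapy and at 6.17, 5.78 and 5.29 FPKM with anti-PD-1. Its log2 fold change was -1.35 (SE 0.14) with an adjusted p of 0.000744, the lowest of all genes. The 12 tumours of the other ablations ran from 10.3 to 17.4 FPKM, so the 3 with cryo-thermal therapy and anti-PD-1 lay below the other 15. Cavin2 passed the threshold in all 19 alternative analyses run. Cav1 (NCBI gene 12389), the main caveolar scaffold, was at 134, 151 and 199 FPKM without and 118, 97.0 and 90.8 FPKM with the antibody (log2 fold change -0.65, SE 0.12, adjusted p = 0.0338). Other caveolar genes were looked up after these 2 had been seen. Cav2 had a log2 fold change of -0.57, Cavin1 of -0.34 and Cavin3 of -0.33, and none of the 3 passed (adjusted p from 0.128 to 0.162). Beside these values, the list of endothelial genes had 5 of 19 tested members with a fold change above 0, a median of -0.15 and no member past the threshold. Without replicate 3 with anti-PD-1 its median was -0.03, and without cryo-thermal replicate 1 it was -0.04, each with 9 of 19 above 0, while without replicate 1 with anti-PD-1 it was -0.27. In bulk tumours, fewer cells of a type and less RNA per cell cannot be told apart.

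**Figure D2:**
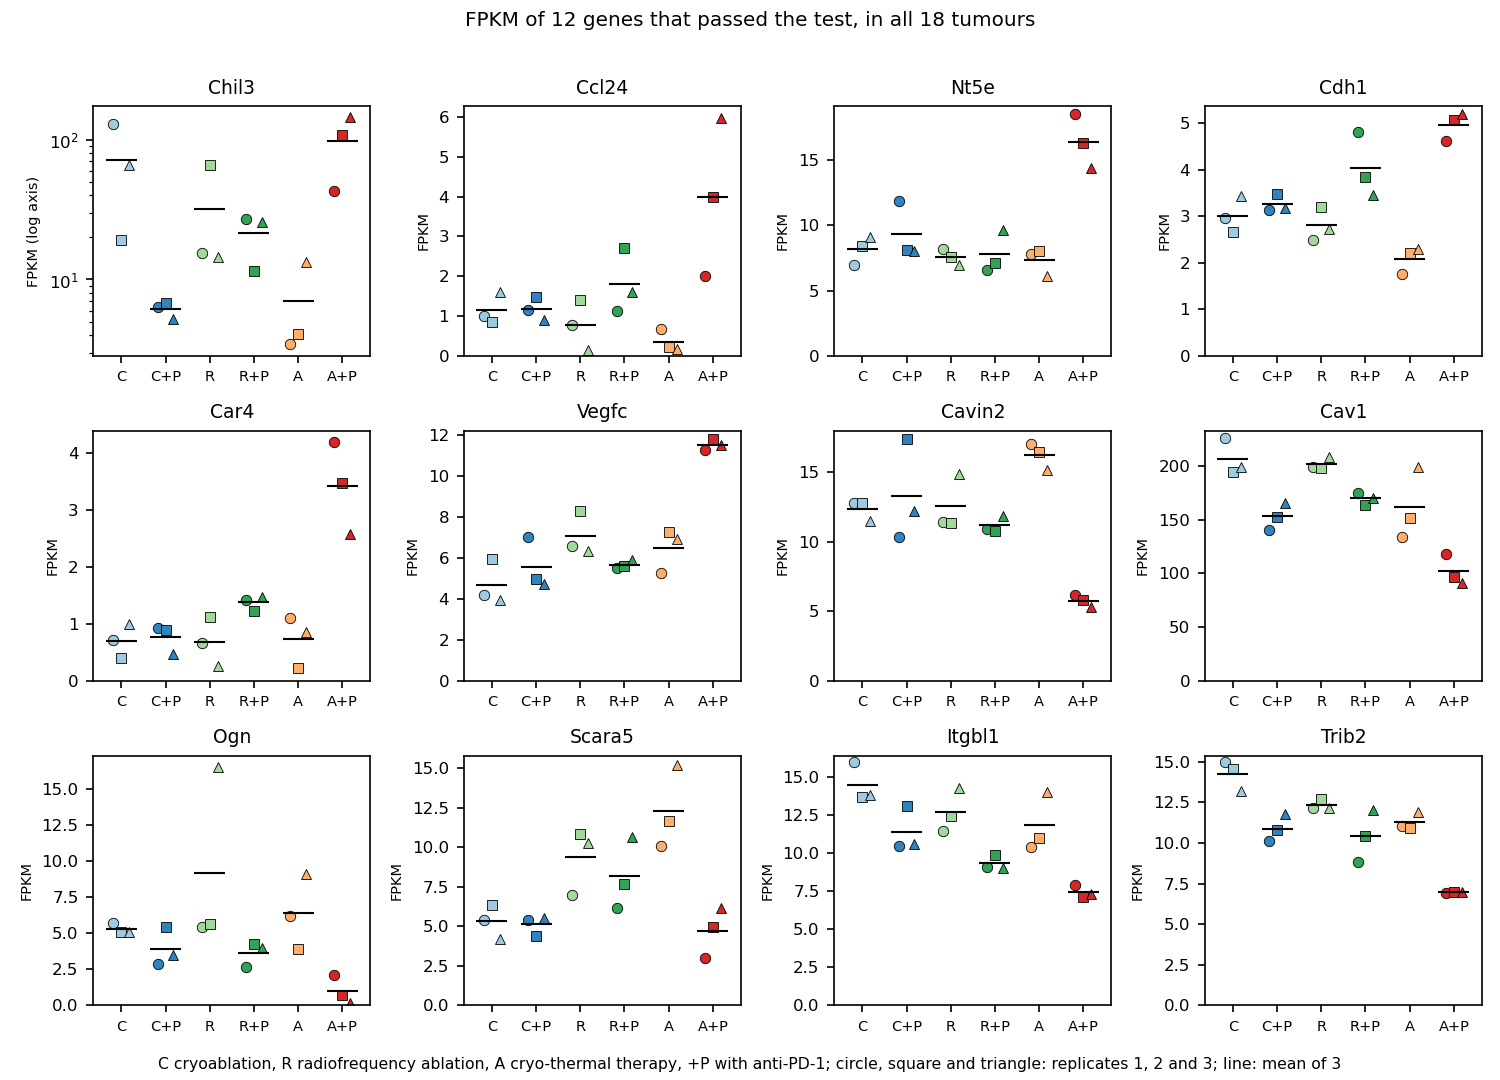
FPKM of 12 genes that passed the test is shown for all 18 tumours in 6 groups of 3, with the axis of Chil3 on a log scale and the others linear from 0. Points are tumours and lines are means of 3. The last column of each panel, cryo-thermal therapy with anti-PD-1, does not overlap the column before it, and for Nt5e, Car4, Vegfc, Cavin2, Cav1, Ogn, Itgbl1 and Trib2 it lies outside all other 15 tumours.

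Among the genes that fell were single products of connective tissue. Ogn (NCBI gene 18295), the small proteoglycan osteoglycin, was at 6.15, 3.91 and 9.06 FPKM without and 2.07, 0.720 and 0.194 FPKM with anti-PD-1 (log2 fold change -1.94, SE 0.38, adjusted p = 0.0434). Ogn passed in 1 of the 6 fits with 1 tumour left out. Itgbl1, an integrin beta-like secreted protein, fell by 0.59 on the log2 scale, and Scara5, a ferritin receptor of fibroblasts, fell by 1.24. Scara5 was at 10.1, 11.7 and 15.2 FPKM without and 3.00, 4.98 and 6.16 FPKM with the antibody. Ogn was the only one of 28 tested fibroblast genes to pass, while 8 of the 28 had a fold change above 0 and their median was -0.20, or -0.07 without cryo-thermal replicate 3. Of the others, the proteoglycan Aspn had -0.996 (SE 0.46), the matrix protein Sparc -0.28 (SE 0.10) and Tnc, the matrix protein tenascin C, 0.93 (SE 0.37), with adjusted p of 0.377, 0.242 and 0.298.

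Other genes fell as well. Trib2, a pseudokinase, was at 11.1, 10.9 and 11.9 FPKM without and 6.92, 7.01 and 7.01 FPKM with anti-PD-1, a log2 fold change of -0.62 (SE 0.09) with an adjusted p of 0.00994. Ccdc170 fell by 0.75, the ephrin receptor gene Ephb3 by 0.57, the annexin gene Anxa3 by 0.49 and the kinase gene Camkk1 by 0.46. Vkorc1, the enzyme that recycles vitamin K, fell by 0.43, the catenin gene Arvcf by 0.40, Lhfpl6 by 0.39 and Errfi1, an inhibitor of the EGF receptor, by 0.36. The groups did not overlap for any of these genes, and Anxa3 was at 88.9, 82.7 and 75.4 FPKM without and 54.1, 58.3 and 62.6 FPKM with the antibody.

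Genes of T cells were higher with anti-PD-1 without passing the test. Of 28 listed genes of the T cell receptor and its signalling, 18 passed the filter, and all 18 had a fold change above 0, against 50.8% of all genes. Their median was 0.44 against 0.003, and the lowest adjusted p was 0.12. The mean log2 level of the list was 1.78, 1.45 and 1.05 in the 3 tumours without the antibody and 1.70, 1.74 and 1.78 with it. The groups overlapped, with cryo-thermal replicate 1 as high as the tumours with anti-PD-1. Without replicate 3, the lowest, the median was 0.17 and 16 of 18 genes had a fold change above 0. Without replicate 1 the median was 0.66. Cd3e, a chain of the T cell receptor complex, was at 4.17, 2.40 and 1.40 FPKM without and 3.68, 4.47 and 4.57 FPKM with the antibody (log2 fold change 0.59, SE 0.38). The co-receptor gene Cd8a was at 5.20, 3.48 and 1.95 FPKM without and 4.72, 5.93 and 6.31 FPKM with it (0.61, SE 0.34, adjusted p = 0.458). Cd4 had a log2 fold change of 0.43 (SE 0.22), and Pdcd1, the antibody's target, 0.47 (SE 0.28, adjusted p = 0.484). An antibody does not delete its target gene, so Pdcd1 checks no label. The smallest p of the list was that of Lef1, a T cell transcription factor, at 0.950 ± 0.124 and 1.76 ± 0.190 FPKM (SD, n = 3 each; adjusted p = 0.12), followed by Fyb and Cd6, with log2 fold changes of 0.22 and 0.45.

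Of 21 tested genes of cytotoxic lymphocytes, 19 had a fold change above 0, with a median of 0.32, and none passed (lowest adjusted p 0.27). The median was 0.52 without cryo-thermal replicate 1 and 0.21 without replicate 3. Gzmb, the protease granzyme B, was at 19.0, 11.3 and 12.6 FPKM without and 23.2, 23.4 and 24.4 FPKM with anti-PD-1 (0.72 on the log2 scale, SE 0.47, adjusted p = 0.524). Prf1, the pore-forming protein perforin, was at 6.67, 4.23 and 4.58 FPKM without and 7.30, 7.49 and 7.74 FPKM with it (0.49, SE 0.38). For both genes the groups did not overlap, and the 3 tumours with the antibody lay within a narrow range. Gzma had a log2 fold change of 1.02, Gzmf, chosen after its value had been seen, of 0.73 and Serpinb9b, of the serpin family of protease inhibitors, of 0.61, with adjusted p of 0.46, 0.478 and 0.27. Some granzyme genes, such as Gzmf, have neighbours of similar sequence, so how reads were shared among those is uncertain.

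Of 13 tested genes for cytokines of type 1 lymphocytes and their receptors, 10 had a fold change above 0 and the median was 0.29, or 0.50 without cryo-thermal replicate 1. Ifng (NCBI gene 15978), which encodes interferon gamma, was at 2.19, 1.18 and 0.455 FPKM without and 3.56, 3.66 and 2.62 FPKM with anti-PD-1. The groups did not overlap, and the 12 tumours of the other ablations ran from 0 to 1.05 FPKM. The log2 fold change of Ifng was 0.98 (SE 0.26), with an unadjusted p of 0.00171 and an adjusted p of 0.108. Il18rap, a subunit of the interleukin 18 receptor, was at 4.69, 3.89 and 2.53 FPKM without and 8.66, 7.81 and 7.41 FPKM with the antibody (0.95, SE 0.25, adjusted p = 0.105). For Il12rb1, a receptor chain for interleukin 12, it was 0.77 (SE 0.30, adjusted p = 0.293). All 3 genes were thus past an unadjusted p of 0.05 and short of the adjusted threshold.

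The chemokine of the series title did not stand out in this comparison. Ccl5 was at 5.58, 6.62 and 7.39 FPKM without and 6.49, 9.51 and 8.70 FPKM with anti-PD-1, and the groups overlapped (log2 fold change 0.29, SE 0.36, adjusted p = 0.77). Cxcl9 was at 12.0, 13.2 and 17.2 FPKM without and 30.6, 31.7 and 34.6 FPKM with the antibody, which did not overlap (1.15, SE 0.48, adjusted p = 0.331). Cxcl10 was at 39.0, 77.7 and 73.9 FPKM without and 235, 144 and 57.8 FPKM with it, and here the groups overlapped (1.03, SE 0.43, adjusted p = 0.329). The gene of their receptor, Cxcr3, had -0.04 (SE 0.20), with a sign that changed in 5 alternative analyses. Cxcl11 was not analysed here. Itgam, an integrin of myeloid cells, had 0.10 (SE 0.18), which turned sign without cryo-thermal replicate 3.

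Checkpoint genes included Nt5e, described above, and otherwise no gene past the threshold. Of 19 tested, 16 had a fold change above 0 and the median was 0.24, which was 0.47 without cryo-thermal replicate 1 and 0.13 without replicate 3. Pdcd1lg2 (PD-L2) was at 1.72, 0.502 and 0.507 FPKM without and 1.77, 5.31 and 7.21 FPKM with anti-PD-1, with a log2 fold change of 1.51 (SE 0.36) that missed the threshold (adjusted p = 0.0898). Cd274 (PD-L1) was at 19.0, 9.83 and 8.59 FPKM without and 15.5, 18.8 and 21.2 FPKM with it, and the groups overlapped (0.60, SE 0.37, adjusted p = 0.5). Ido1, an enzyme that degrades tryptophan, was at 5.15, 3.36 and 3.03 FPKM without and 8.73, 10.5 and 12.1 FPKM with the antibody (1.25, SE 0.43, adjusted p = 0.219). Against this direction, Lgals9, a ligand of the receptor TIM-3, was at 57.6, 44.4 and 46.8 FPKM without and 36.5, 37.6 and 40.6 FPKM with it (-0.36, SE 0.09, adjusted p = 0.0997).

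Genes induced by interferon gamma and genes of the type I interferon response took opposite signs. Of 30 tested genes of the interferon gamma response, all 30 had a fold change above 0 with a median of 0.49, and of 28 tested genes of the type I response 6 did, with a median of -0.25. No gene of either list passed (lowest adjusted p 0.219 and 0.242). The groups did not overlap for 11 genes of the first list, all higher with anti-PD-1, and for 5 of the second, all lower, beside 10.6% and 9.2% of all genes in these directions. The mean level of the interferon gamma list was 5.17, 4.69 and 4.57 without the antibody and 5.22, 5.44 and 5.47 with it. The mean level of the type I list was 4.08, 3.35 and 3.18 without and 3.201, 3.32 and 3.34 with it, so that only cryo-thermal replicate 1 was set apart. Without that tumour 15 of the 28 type I genes had a fold change above 0 and their median was 0.01, while the interferon gamma list kept all 30 above 0 and had a median of 0.71. Leaving out each of the other 5 tumours in turn left all 30 above 0 as well, with medians from 0.41 to 0.61.

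Short windows around response elements of single genes of both lists are shown because these elements are the letters through which interferons are known to act. Interferon gamma acts through GAS elements, and interferon regulatory factors and the type I complex bind ISRE elements. The sequences are from RefSeq (GRCm38.p6), 5′ to 3′ on the strand of the gene, with the matched letters in capitals. The letters searched in the 250 bases before the start site were TTCNNNGAA for GAS, the same on both strands, and, for ISRE on either strand, GAAA followed by any 2 bases and GAAA again.
Irf1 (GAS, chr11:53769904-53769952): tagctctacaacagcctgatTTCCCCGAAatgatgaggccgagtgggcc
Socs1 (ISRE, chr16:10785590-10785639): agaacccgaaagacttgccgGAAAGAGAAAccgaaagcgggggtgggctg
Cxcl10 (ISRE, chr5:92349073-92349122): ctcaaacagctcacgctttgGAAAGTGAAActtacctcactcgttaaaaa
Ifit1 (ISRE, chr19:34640765-34640814): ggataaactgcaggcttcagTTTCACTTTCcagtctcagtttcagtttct
Ifit3 (ISRE, chr19:34583353-34583402): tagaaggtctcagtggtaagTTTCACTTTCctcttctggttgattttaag
Ifit3b holds the same window as Ifit3 at chr19:34607749-34607798, and how reads were shared between the transcripts of these paralogs is uncertain. Of 9938 tested genes with a promoter in the table, 331 held the ISRE letters (3.33%) and 723 the GAS letters (7.28%). Of 19 interferon gamma genes with a promoter, 11 held ISRE and 10 GAS, and of 22 type I genes 10 held ISRE and 4 GAS. A match describes letters and shows no binding.

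Several genes named here and in the next paragraph were chosen after their values had been seen, namely Irf1, Gbp2, Irf7, Isg15 and H2-K1. Of the genes with windows above, Irf1 (NCBI gene 16362), a transcription factor, was at 93.5, 79.7 and 74.1 FPKM without and 104, 119 and 126 FPKM with anti-PD-1, which did not overlap (log2 fold change 0.49, SE 0.32). Socs1, a feedback inhibitor of interferon signalling, had 0.61 (SE 0.24, adjusted p = 0.3). Ifit3 (NCBI gene 15959), an antiviral protein, was at 31.4, 15.0 and 14.9 FPKM without and 10.5, 11.0 and 11.9 FPKM with the antibody (-0.74, SE 0.44), Ifit1 had -0.66 (SE 0.35), and Ifit3b -0.77 (SE 0.28, adjusted p = 0.242). Of further interferon gamma genes, Ubd was at 35.8, 33.2 and 16.2 FPKM without and 81.1, 66.6 and 63.4 FPKM with it (1.35, SE 0.65). Wars1 had 0.38 and Gbp2 0.54, with SE of 0.15 and 0.61. Irf7 and Isg15 of the type I list had -0.56 and -0.47, with SE of 0.41 and 0.42.

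Antigen presentation genes pointed upward with the interferon gamma list. Of 21 tested MHC class I genes 20 had a fold change above 0 (median 0.32), as did 9 of 10 class II genes (median 0.39), and none passed. Without cryo-thermal replicate 3 these medians were 0.18 and 0.23. The class II median was 0.60 without replicate 1 with anti-PD-1 and 0.23 without its replicate 3. The proteasome subunit gene Psmb10 was at 104, 79.9 and 74.1 FPKM without and 111, 124 and 129 FPKM with anti-PD-1 (0.50, SE 0.31). The heavy chain gene H2-K1 had 0.29 (SE 0.26). H2-Ab1, a class II chain, was at 314, 229 and 165 FPKM without and 232, 403 and 495 FPKM with it (0.65, SE 0.46), and the class II chaperone Cd74 had 0.63 (SE 0.45, adjusted p = 0.57). H2 genes are similar in sequence, so the sharing of reads among them is uncertain.

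**Figure D3:**
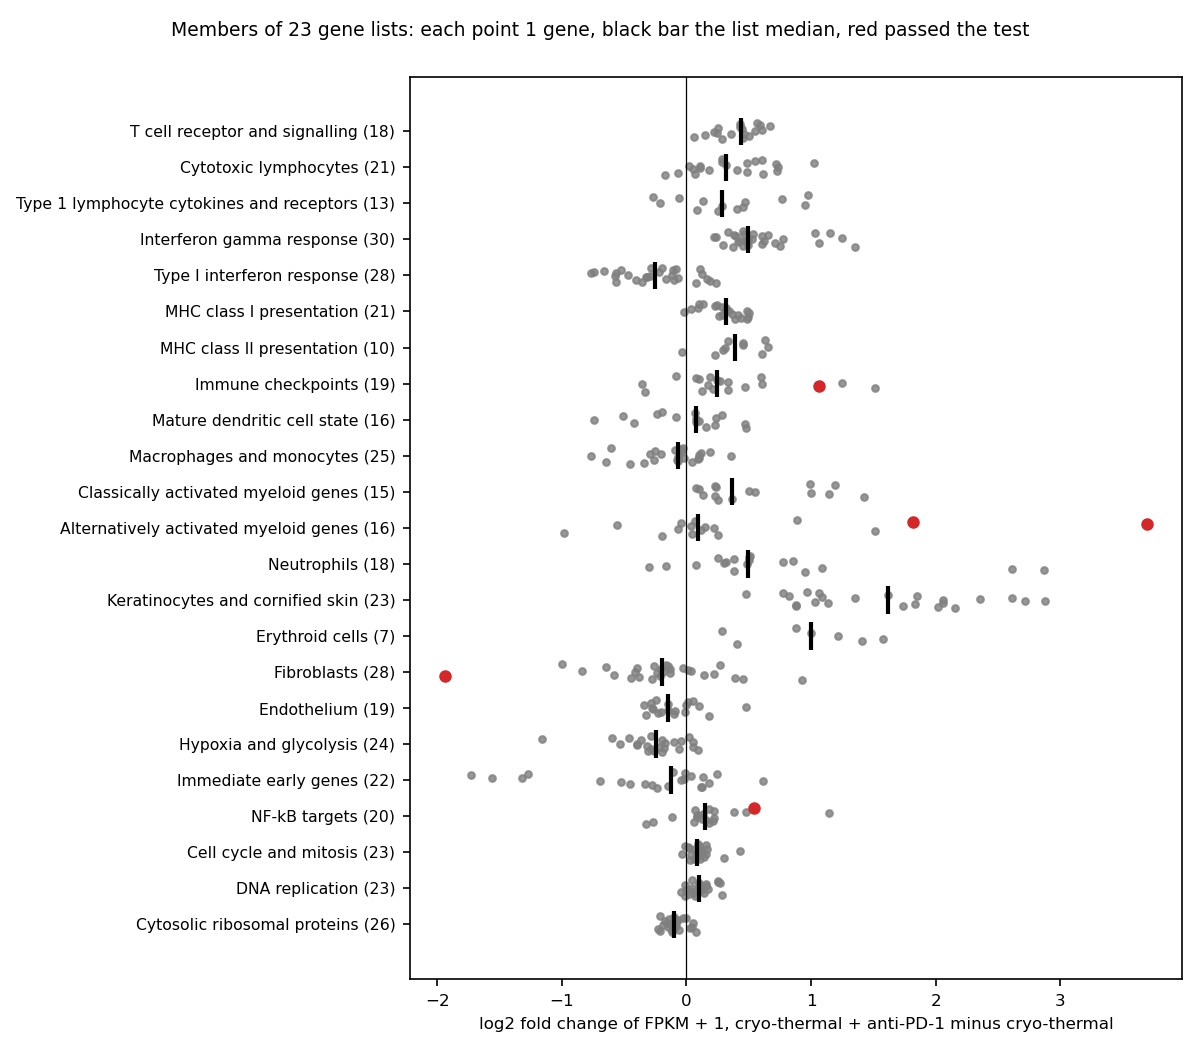
Log2 fold changes of the tested members of 23 gene lists (number of members in brackets), cryo-thermal therapy with anti-PD-1 minus cryo-thermal therapy alone. Each point is 1 gene, black bars are list medians and red points are the members that passed the test. All members of the T cell, interferon gamma, keratinocyte and erythroid lists lie right of 0, and most of the type I interferon list lies left of it.

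All 15 tested genes of classical myeloid activation had a fold change above 0, with a median of 0.37 and none past the threshold. The groups overlapped in the mean level of the list, at 2.72, 2.02 and 1.78 without anti-PD-1 and 2.71, 2.60 and 2.49 with it. The median was 0.78 without cryo-thermal replicate 1, 0.23 without replicate 2 and 0.24 without replicate 3, when 13 of 15 genes were above 0, and 0.58 without replicate 3 with the antibody. Nos2, which makes nitric oxide, was at 14.8, 5.30 and 3.82 FPKM without and 15.9, 21.3 and 23.5 FPKM with anti-PD-1 (1.42, SE 0.45, adjusted p = 0.183). Ass1, which feeds arginine to Nos2, was at 20, 15.0 and 9.52 FPKM without and 26.1, 33.5 and 43.7 FPKM with it (1.19, SE 0.32, adjusted p = 0.117). The cytokine genes Il1a and Il1b had 1.00 (SE 0.30) and 1.14 (SE 0.50). Of the list of alternative activation, 11 of 16 had a fold change above 0, with a median of 0.09. That median was 0.14 without cryo-thermal replicate 1, 0.05 without replicate 2 and 0.16 without replicate 1 with anti-PD-1. At a limma unadjusted p under 0.05 the list had 5 genes, all higher with the antibody, beside 7.02% of all genes. Chil3 and Ccl24, already picked from these same values, were among the 5. Arg1, which breaks down arginine, was at 329, 207 and 161 FPKM without and 348, 431 and 465 FPKM with the antibody, with no overlap (0.89, SE 0.24, adjusted p = 0.119). Tgfb1, which encodes TGF beta 1, had 0.25 (SE 0.08, adjusted p = 0.198). Retnla, another product of alternative activation, was at 5.97, 8.83 and 0.824 FPKM without and 1.87, 1.48 and 1.27 FPKM with it (-0.98, SE 0.51).

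Of 25 tested genes of macrophages and monocytes, 7 had a fold change above 0 and the median was -0.06, which became 15 of 25 and 0.10 without cryo-thermal replicate 1. Adgre1, which encodes F4/80, was at 23.5, 13.0 and 13.8 FPKM without and 10.5, 10.7 and 9.66 FPKM with anti-PD-1 (-0.61, SE 0.24, adjusted p = 0.292). Siglec1, a lectin of resident macrophages, had -0.64 (SE 0.25, adjusted p = 0.285). Cx3cr1, the fractalkine receptor, was at 5.27, 5.81 and 7.25 FPKM without and 2.14, 1.99 and 1.91 FPKM with it. In the list of the CXCR3 axis and lymphocyte traffic it was the gene closest to the threshold, with a log2 fold change of -1.23 (SE 0.26) and an adjusted p of 0.0566. In the list of mature dendritic cells, 10 of 16 had a fold change above 0 (median 0.08), a median of -0.07 without cryo-thermal replicate 3 and 0.15 without replicate 1. Of its members, the activation marker Cd83 was at 6.04, 5.94 and 4.12 FPKM without and 2.48, 2.91 and 2.97 FPKM with it (-0.74, SE 0.19, adjusted p = 0.105), and the ligand gene Icosl had -0.42 (SE 0.14). At a limma unadjusted p under 0.05 that list had 1 member higher with the antibody and these 2 lower, beside 7.02% and 5.93% of all genes.

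Neutrophil genes were uneven between tumours. Of 18 tested, 16 had a fold change above 0, with a median of 0.49, and none passed. The subunits of calprotectin led: S100a9 was at 20.2, 2.13 and 8.61 FPKM without and 230, 71.9 and 13.7 FPKM with anti-PD-1 (2.87, SE 0.89, adjusted p = 0.173), and S100a8 had 2.61 (SE 0.87). Keratinocyte levels in the same order of tumours were 0.53, 1.85 and 0.67 without and 4.08, 2.62 and 0.52 with the antibody. S100a9 thus ran with that level among the tumours with the antibody and against it among those without. Over 19 alternatives, which include the keratinocyte level as a covariate, its log2 fold change ran from 1.929 to 4.113. Beyond those fits the part of skin in these values was not tested. The defining neutrophil marker Ly6g was at 0 to 0.222 FPKM in the 6 tumours. The list's mean level was 2.10, 1.11 and 1.36 without and 2.68, 2.08 and 1.51 with the antibody. Without the skin-rich tumour the list median was 0.26 with 13 of 18 above 0, and it was 0.25 without cryo-thermal replicate 2, 0.33 without replicate 3 and 0.90 without replicate 1. Leaving out replicate 3 with the antibody gave 0.78.

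**Figure D4:**
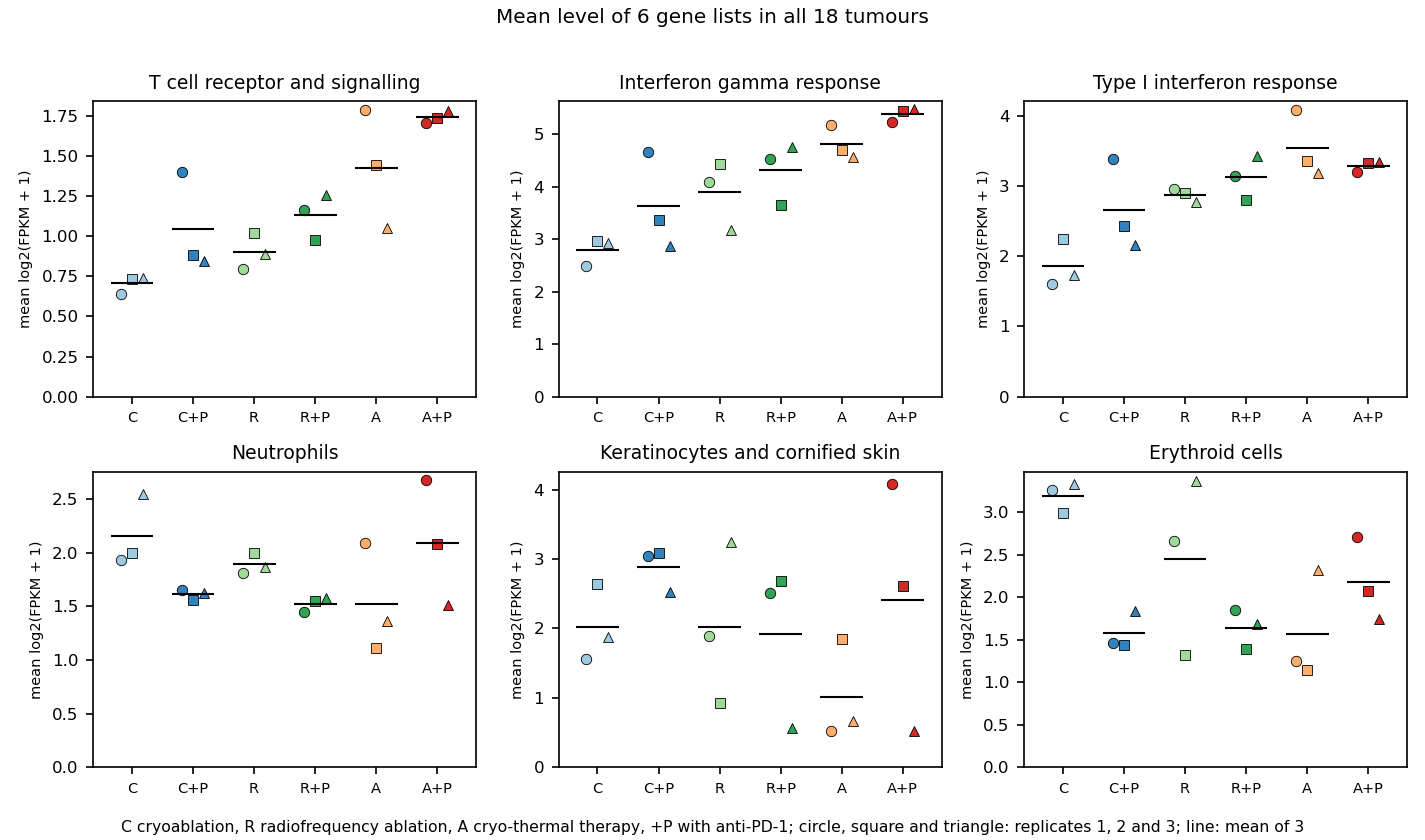
Mean log2(FPKM + 1) of 6 gene lists in all 18 tumours, in 6 groups of 3, with linear axes from 0. Points are tumours and lines are means of 3. The tumours with cryo-thermal therapy and anti-PD-1 lie together for the T cell list, at 1.70 to 1.78, and far apart for the keratinocyte list, at 0.52 to 4.08.

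Genes of other tissues also differed between the tumours. All 23 tested keratinocyte genes had a fold change above 0 (median 1.61), and none passed. Without the skin-rich replicate 1 the median was 0.58 with 21 of 23 above 0, and without replicate 3 with the antibody it was 2.59. Krt14, a basal keratin, was at 58.0, 67.5 and 43.0 FPKM without and 244, 112 and 60.8 FPKM with anti-PD-1, while Krt6a, of hair and wounded skin, was at 0, 2.67 and 0.151 FPKM without and 64.1, 17.3 and 0.0117 FPKM with it. All 7 tested erythroid genes had a fold change above 0 (median 1.00), with medians of 0.57 without replicate 1 with the antibody and 1.79 without cryo-thermal replicate 3. Their mean level was 1.26, 1.14 and 2.32 without and 2.70, 2.08 and 1.75 with the antibody, and the groups overlapped. Jchain, a plasma cell gene and the only tested gene of its list, was at 4.77, 4.06 and 0.637 FPKM without and 0.850, 0.675 and 0.511 FPKM with it (-1.12, SE 0.37, adjusted p = 0.21). Ngfr, the nerve growth factor receptor of Schwann cells and other types, was at 10.3, 11.8 and 7.60 FPKM without and 18.1, 22.7 and 24.6 FPKM with it (1.07, SE 0.33, adjusted p = 0.173).

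Genes of hypoxia and glycolysis were lower in the tumours with anti-PD-1. Of 24 tested, 4 had a fold change above 0, the median was -0.24, and in 14 the 3 tumours with the antibody lay below the 3 without, as in 9.2% of all genes. The mean level was 6.10, 6.09 and 6.14 without and 5.86, 5.84 and 5.84 with it. No gene passed (lowest adjusted p 0.144). Car9, a carbonic anhydrase induced by low oxygen, was at 9.27, 5.92 and 10.2 FPKM without and 3.40, 3.15 and 2.87 FPKM with the antibody (-1.16, SE 0.34). Ankrd37, another such gene, had -0.60 (SE 0.21, adjusted p = 0.24), and Bhlhe41, a transcription factor induced by low oxygen and by the clock, had -0.67 (SE 0.20, adjusted p = 0.162).

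Of 22 tested immediate early genes, which respond within minutes to growth factors or handling of tissue, 7 had a fold change above 0 and the median was -0.13, with -0.08 without cryo-thermal replicate 1 and -0.27 without replicate 2. Egr1 was at 62.2, 38.7 and 167 FPKM without and 29.9, 20.01 and 17.0 FPKM with anti-PD-1 (-1.72, SE 0.47, adjusted p = 0.119). Dusp1 had -1.27, Fos -1.32 and Fosb -1.56, with adjusted p of 0.137, 0.273 and 0.304. Cryo-thermal replicate 3 was the highest tumour for all 4 genes, and the time from resection to lysis was not given in the sources used here. Proliferation genes had small shifts: 21 of 23 tested genes of the cell cycle and 19 of 23 of DNA replication had a fold change above 0, with medians of 0.09 and 0.10 and none past the threshold. Without cryo-thermal replicate 3 these were 16 and 14 of 23, with medians of 0.04 and 0.02, and the median of DNA replication was 0.07 without replicate 1 with the antibody. Inhba, which encodes the activin A subunit of the TGF beta family, was at 9.22, 12.0 and 9.17 FPKM without and 17.4, 16.2 and 14.3 FPKM with it (0.61, SE 0.15, adjusted p = 0.0982).

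Whether the antibody's effect differed by ablation was tested with the difference of 2 effects, which share no tumour. Anti-PD-1 added to cryoablation changed 543 genes (4.31%) and added to radiofrequency ablation 6 (0.0477%), and those counts were not compared with the 47 here. The effect after cryo-thermal therapy differed from that after cryoablation for 21 genes (0.167%), 14 with a higher and 7 with a lower effect after cryo-thermal therapy. Of the 21, 11 were among the 47, which hold 0.246% of all genes as rises and 0.127% as falls. The difference contains the effect in the same 6 tumours, so this overlap follows in part from the design and is no separate support. The effect after cryo-thermal therapy differed from that after radiofrequency ablation for 0 genes (0.0%) in limma's test. The lowest adjusted p was 0.14, and 910 genes (7.23%) had an unadjusted p under 0.05.

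Chil3 had the largest difference from cryoablation, 6.68 (SE 0.97, adjusted p = 0.013). After cryoablation it fell from 129, 19.2 and 66.0 FPKM to 6.35, 6.74 and 5.24 FPKM with the antibody (-2.98 on the log2 scale, SE 0.69, adjusted p = 0.0319), where after cryo-thermal therapy it rose by 3.70. Cavin2 differed by -1.43 (SE 0.20, adjusted p = 0.0103), with an effect of 0.07 (SE 0.14) after cryoablation and of -0.14 (SE 0.14) after radiofrequency ablation. Cdh1 differed by 0.86 (SE 0.15, adjusted p = 0.0379), with effects of 0.09 after cryoablation and 0.40 after radiofrequency ablation. Plxnb1 differed by 1.19 and Bcl3 by 0.88. Their effects were 0.77 and 0.54 after cryo-thermal therapy and -0.42 and -0.34 after cryoablation, where that of Bcl3 did not pass the test (adjusted p = 0.0694). Aqp5, a water channel of glands, differed by -2.51 (SE 0.43, adjusted p = 0.0334): it was at 22.8, 25.7 and 14.9 FPKM after cryo-thermal therapy and 6.48, 7.49 and 10.3 FPKM with anti-PD-1, and at 2.31, 6.07 and 2.47 FPKM after cryoablation and 12.9, 5.89 and 10.2 FPKM with it. Rgs2, which dampens G protein signalling, differed by -1.05 (SE 0.14, adjusted p = 0.0103). The effects of Aqp5 and Rgs2 after cryo-thermal therapy did not pass (adjusted p = 0.0832 and 0.0541), while those after cryoablation did (adjusted p = 0.0353 and 0.0149). The count rested on single tumours: leaving out cryoablation replicate 3 gave 0 genes, leaving out cryo-thermal replicate 3 gave 189, and the other 10 exclusions gave 1 to 52. Adding the erythroid level to the model as a covariate left 0 genes too. That list's mean level was 3.00 to 3.33 after cryoablation and 1.44 to 1.84 with the antibody.

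**Figure D5:**
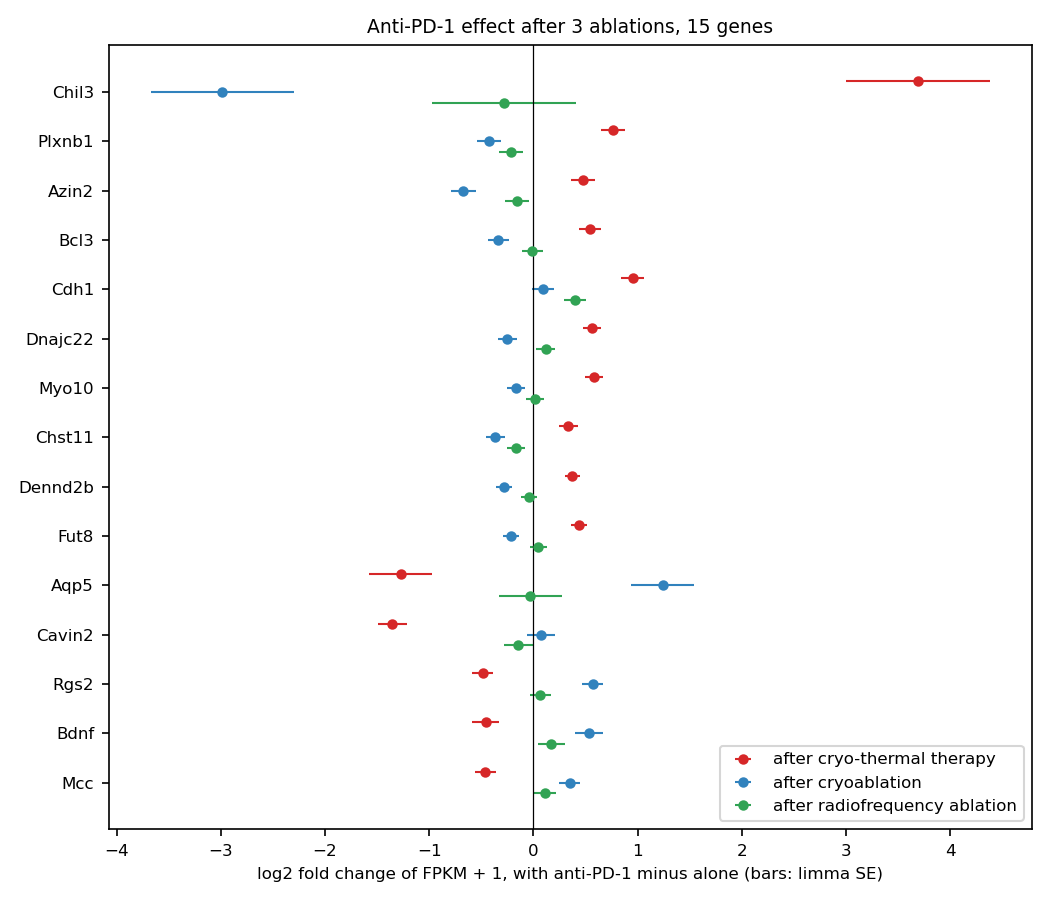
Log2 fold change of FPKM + 1 with anti-PD-1 minus alone after each ablation, for the 15 named genes whose effect after cryo-thermal therapy differed from that after cryoablation. Points are limma estimates and bars their SE. The effects after cryo-thermal therapy (red) and cryoablation (blue) lie on opposite sides of 0 for all but Cdh1, where both are positive.

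The gene lists gave the difference from cryoablation in another form. Of the type I interferon list, 16 of 28 genes had an unadjusted p under 0.05 for the difference, against 13.4% of all genes, and none passed the adjusted threshold. Its median effect was -0.25 after cryo-thermal therapy, 0.82 after cryoablation and 0.23 after radiofrequency ablation, with 27 and 26 of 28 genes above 0 in the latter groups, where 46.9% and 51.7% of all genes were. Without cryo-thermal replicate 1 the median after cryo-thermal therapy was 0.01, with 15 of 28 above 0. The list's mean level was 1.61, 2.24 and 1.73 after cryoablation and 3.39, 2.43 and 2.16 with the antibody, so replicate 1 stood highest there. The interferon gamma list had median effects of 0.49, 0.95 and 0.44, and 0 of its 30 genes had an unadjusted p under 0.05 for the difference from cryoablation. The T cell list had 0.44, 0.45 and 0.33. Levels before the antibody were not alike: the mean level of the interferon gamma list was 2.48 to 2.97 after cryoablation alone, 3.17 to 4.42 after radiofrequency ablation alone and 4.57 to 5.17 after cryo-thermal therapy alone.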

How the data were processed

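RNA of 18 tumours was sequenced after TRIzol extraction with a silica column and DNase, and libraries were made with the VAHTS Universal V6 kit, per the labels' protocols. The authors deposited 1 table of FPKM values for 26538 genes. Per the submitters' processing notes HTSeq 0.11.2 was among the tools. Which aligner, build, annotation and strand setting were used is not given in the sources used here. No column belonged to other samples, and no 2 columns were identical.

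From these values log2(FPKM + 1) was computed with a pseudocount of 1, and genes with a mean of at least 0.5 FPKM were kept. One model with 6 group means over all 18 tumours was fitted with limma 3.58.1 (R 4.3.3), with a variance trend, and 2-sided p-values were adjusted by the Benjamini-Hochberg method over 12587 genes. Every adjusted p in the text is from limma, and the threshold was 0.05. Taking all groups lets 12 residual degrees of freedom estimate the spread. The fit was tested on simulated data. The spread within groups gave correlations of 0.9716 to 0.9916 in the tumours compared.

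Depth was estimated from the steps of low values, of which 96.36% of 45118 came out whole within 0.05 fragments. It is approximate, since gene lengths come from another annotation. No interval from counts is given.

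The comparison with its members, which treatment labels define, and the 55 gene lists were chosen with earlier results of these data known. Of 1085 list entries, 1065 matched by symbol, 4 by gene number and 16 did not match, and 864 were tested. List levels are means over all matched members, tested or not. Named genes are up to 15 in each direction with the largest change among those past the threshold whose groups do not overlap, up to 6 of each list by unadjusted p with its defining markers, the genes tied to the series title, and up to 10 in each direction for a difference between ablations. Genes named outside this rule are said to be so or stand in a full list of the genes that passed. Promoters are from RefSeq (GRCm38.p6). Alternatives were other samples in the fit, a replicate block, pseudocount, filters, scaling, array weights, no variance trend, skin and erythroid covariates, and each tumour left out. Tables were handled in Python 3.11.15 (numpy 2.4.6, pandas 2.3.3), and plots were drawn with matplotlib 3.10.9. Some items of the series are not reported here.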

Additional observations from a re-analysis of the deposited data

Results flagged for a closer look

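For 15 named genes the effect of anti-PD-1 after cryo-thermal therapy differed from its effect after cryoablation in limma's test of the difference itself (adjusted p from 0.0103 to 0.0493). The difference of the log2 effects was positive for 10 genes. It was 6.68 for Chil3, 1.19 for Plxnb1 and 1.15 for Azin2. It was 0.88 for Bcl3, 0.86 for Cdh1, 0.81 for Dnajc22 and 0.75 for Myo10. The smallest were 0.70 for Chst11, 0.66 for Dennd2b and 0.65 for Fut8. The difference was negative for 5 genes, at -2.51 for Aqp5, -1.43 for Cavin2, -1.05 for Rgs2, -0.99 for Bdnf and -0.81 for Mcc. Azin2, an inhibitor of antizyme in polyamine metabolism, had an effect of 0.48 after cryo-thermal therapy, which did not pass the test (adjusted p = 0.097), and fell by 0.67 after cryoablation. The effects after cryo-thermal therapy of Chst11, Aqp5, Rgs2, Bdnf and Mcc did not pass either (adjusted p from 0.0541 to 0.142). Bdnf, a neurotrophin, was at 2.57 ± 0.678 FPKM after cryo-thermal therapy and 1.57 ± 0.123 FPKM with anti-PD-1, and at 1.51 ± 0.174 and 2.64 ± 0.332 FPKM after cryoablation (SD, n = 3 each).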

How the results depend on the processing

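The 47 genes changed by anti-PD-1 became 1 with only the groups compared, 5 without the skin-rich tumours (cryo-thermal with anti-PD-1 replicate 1 and cryoablation with anti-PD-1 replicates 1 and 2, chosen by hair follicle genes, whose mean log2 level was 1.23, 1.33 and 1.28 there), 110 with the erythroid level as a covariate and 5332 with array weights, whose estimate did not converge. With the keratinocyte level as a covariate 48 genes passed in limma's test, but only 28 of them were among the 47. The highest adjusted p of the 47 in that fit was 0.112. Leaving out each tumour in turn gave 2 to 80. All 47 kept their direction wherever they were tested. With a tumour left out or only the groups compared this was fixed in advance, since their groups did not overlap. The 21 genes with a difference from cryoablation became 34 when the keratinocyte list entered as covariate, 0 when the erythroid list did, 2636 with array weights, 1 without the skin-rich tumours, and 0 to 189 with a tumour left out. The 0 genes with a difference from radiofrequency ablation became 1 with only the groups compared, 2 with no filter, 375 with array weights, 1 without the skin-rich tumours, and 0 to 4 with a tumour left out. The cause of these shifts was not tested.

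With the replicate block, 34 genes passed, 32 of them among the 47, and 9 differed from cryoablation. A replicate block with only the groups compared, added after seeing the data, gave 2. Tumours of the same number had correlated deviations of -0.06, 0.116 and 0.198, and replicate 1 with anti-PD-1 was closer to cryo-thermal replicate 2 (0.324), so the numbers were not taken to pair the tumours.

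The sign turned for Cxcr3 with a pseudocount of 0.1 (0.028) and the erythroid covariate (0.039), and its fold change ran from -0.332 to 0.196 with a tumour left out. That of Itgam ran from -0.07 to 0.306. With 3 tumours a group and depth known only approximately, small changes of genes near 0 FPKM could not be resolved.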
